A study of Mus musculus with 23 samples.

Results

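The lysosome is the acid compartment in which cells break down material that they have taken up or no longer need. The 38 genes described here, fixed as a list of symbols, are 15 genes of its proton pump (5 of the V0 sector, 8 of the V1 sector and 2 accessory proteins), 4 membrane proteins, 17 acid hydrolases or their activators and the 2 transcription factors Tfeb and Tfe3. They were found by symbol among 47729 gene entries, and 38 of 38 were among the 16260 genes that passed the filter on low counts. RNA sequencing was done on macrophages and monocytes from C57BL/6J wild type mice, either untreated or carrying a subcutaneous poly(ethylene glycol) (PEG) hydrogel, a synthetic water-swollen polymer network. By the design note of the series, the monocytes were Cx3cr1-positive with high Ly6C, the macrophages were Cx3cr1-positive with low Ly6C, and the study followed the foreign body response, the inflammation and scarring around an implanted material.

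The 8 groups are macrophages of untreated mice (2 libraries), macrophages at days 2, 14 and 28 after implantation (3 libraries each), monocytes of untreated mice (3 libraries) and monocytes at days 2, 14 and 28 (3 libraries each). All are labelled subcutaneous tissue. Cells came from digested tissue and hydrogels, and a low input method (SMART-Seq v4, then Nextera XT) turned their RNA into libraries, per the labels' protocols. Neither the labels nor the design note give the animals' age or say whether animals were pooled. The design note calls the libraries of a group biological replicates without saying what separates them, so the p-values measure the spread between these libraries. Levels are CPM, counts per library size scaled with TMM, a method that assumes most genes do not change between libraries, and fold changes are log2 values ± standard error. A gene is called where its p from edgeR's quasi-likelihood test, adjusted over all 16260 genes by Benjamini and Hochberg, lies under 0.05, and rose and fell are used only of called genes.

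As background, the vacuolar proton pump (V-ATPase) consists of a membrane-bound V0 sector that carries protons and a cytosolic V1 sector that splits ATP, and it supplies the acid pH at which the hydrolases work. Membrane proteins line and stabilise the organelle and export its products. Tfeb and Tfe3 are related transcription factors held in the cytosol by the kinase complex mTORC1 at the lysosome surface, and in the nucleus they bind a motif around CACGTG near many lysosomal genes. In macrophages, lysosomes degrade engulfed particles and cells.

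Most genes of the proton pump were higher at each implant day in both cell types. Among the other 23 members, 1 rose and 1 fell in macrophages at day 2, and calls were few and upward at days 14 and 28. In monocytes the calls among these 23 went both ways, as they did over all tested genes. In macrophages, 11 members rose and 2 fell at day 2 (10.1% and 7.1% of all tested genes, 17.2% in either direction). At day 14, 10 rose and 0 fell (5.51% and 2.7% of all tested genes, 8.21% in either direction). At day 28, 14 rose and 0 fell (6.57% and 3.99%, 10.6% in either direction). In monocytes at day 2, 19 members rose and 5 fell (15.5% and 11.5% of all tested genes, 27% in either direction). At day 14, 17 rose and 7 fell (19.8% and 17.9%, 37.7% in either direction), and at day 28, 12 rose and 1 fell (11.7% and 6.52%, 18.2% in either direction).

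Most of the rises belonged to the pump. Of its 15 genes, 10, 8 and 10 rose in macrophages at days 2, 14 and 28, and 13, 13 and 9 rose in monocytes at the same days. Of the other 23 members, 1, 2 and 4 rose in macrophages and 6, 4 and 3 rose in monocytes. Over all tested genes, 10.1%, 5.51% and 6.57% rose in macrophages and 15.5%, 19.8% and 11.7% in monocytes. The counts of the other 23 members in macrophages at day 2 and in monocytes at days 14 and 28 are near or below these shares. The median log2 fold change of the pump genes was 1.04, 1.11 and 1.15 in macrophages and 1.19, 1.72 and 0.98 in monocytes. The medians of the other members were -0.12, 0.36 and 0.46 in macrophages and -0.01, -0.13 and 0.10 in monocytes, and those of all tested genes lay between -0.16 and 0.00. The 3 comparisons of a cell type share its control libraries, and without macrophage control library A the members called fell to 3, 2 and 7, a fit in which the other control library is assumed to vary like the remaining groups. Of the 154 calls of members over all comparisons, 76 were lost in at least 1 of the fits that each left out 1 library.

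**Figure D1:**
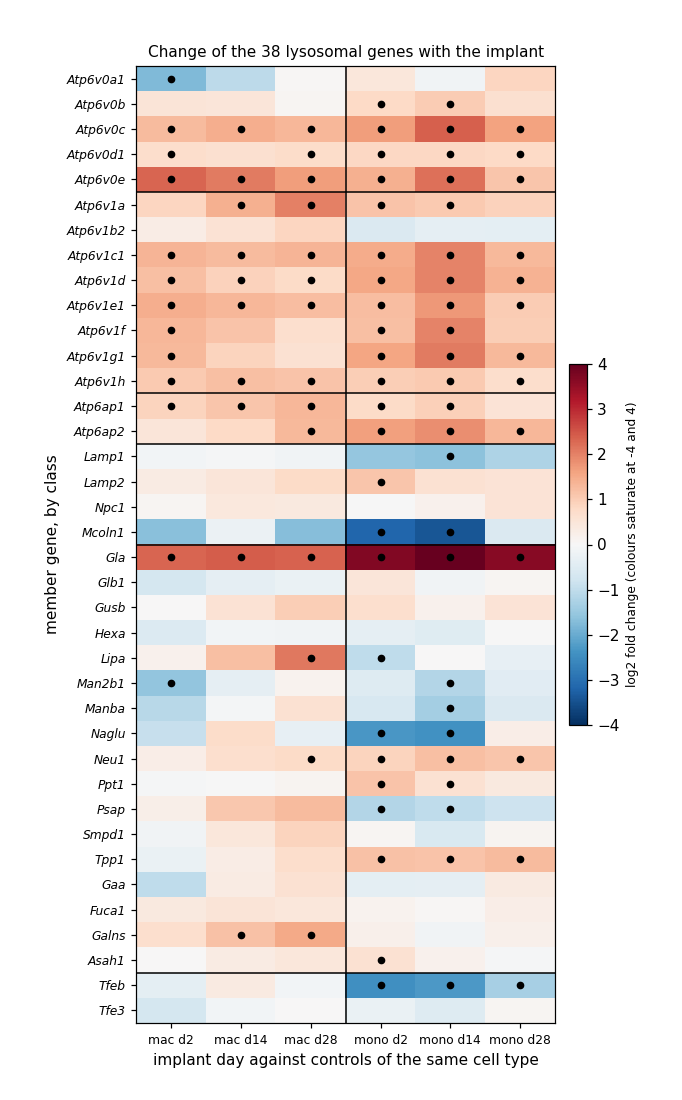
Log2 fold change of each of the 38 genes (rows, grouped by V0, V1, accessory, membrane, hydrolase and factor genes) at days 2, 14 and 28 against controls of the same cell type (columns, macrophages left and monocytes right). Red is higher and blue is lower with colours saturating at -4 and 4, and dots mark edgeR adjusted p under 0.05. Most pump rows are red in both cell types, with exceptions that include Atp6v0a1 in day 2 macrophages and Atp6v1b2 in monocytes, which are blue. The deepest blues are Mcoln1, Naglu and Tfeb in monocytes.

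The scaling between libraries bears on these counts. TMM factors were 1.24 to 1.41 in control libraries and 0.727 to 1.04 in implant libraries, and the cause of that difference was not tested. With library totals alone, the median over all genes was -0.76, -0.61 and -0.51 in macrophages and -0.43, -0.77 and -0.38 in monocytes at days 2, 14 and 28. Relative to that median, the pump genes' median was higher by 1.21, 1.16 and 1.18 in macrophages and 1.17, 1.74 and 0.97 in monocytes, against 1.21, 1.19 and 1.18, and 1.19, 1.75 and 0.98 with TMM. With totals alone, 5, 3 and 6 pump genes were called higher in macrophages and 7, 8 and 6 in monocytes, and 1, 0, 0, 1, 1 and 0 lower. Over all 38 members that scaling called 6, 4 and 8 higher and 9, 0 and 0 lower in macrophages. In monocytes it called 10, 9 and 9 higher and 7, 14 and 3 lower. Of all 16260 tested genes, totals alone called 843, 517 and 584 higher and 2857, 1433 and 1346 lower in macrophages. In monocytes the counts over all tested genes were 1638, 1861 and 1359 higher and 3215, 5361 and 2050 lower. Among all called genes, the share called higher was 58.7%, 67.1%, 62.3%, 57.5%, 52.6% and 64.2% in the 6 control comparisons with TMM, and 22.8%, 26.5%, 30.3%, 33.8%, 25.8% and 39.9% with totals alone. In macrophages at days 2 and 14, an offset for the libraries' trend of level on exon length moved that share to 73.8% and 79.2%. With the offset 12 members were called higher and 0 lower at each of these days. Over all tested genes the offset called 2068 higher and 735 lower at day 2, and 1233 and 324 at day 14. As a share of all counts, the pump genes took 0.414% to 0.419% in macrophage controls and 0.514% to 0.729% in the macrophage implant libraries. In monocytes they took 0.381% to 0.430% in controls and 0.488% to 0.633% with the implant, so every implant library lay above every control library of its cell type on this scale too. Except where totals are named, later statements on libraries above or below controls hold on the TMM scale, and some change with totals.

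The libraries held 9303153 to 32994092 counts (median 24722229), and 3 counts, the limit that a count of 0 allows, correspond to 0.065 to 0.36 CPM. Ly6c2, which encodes the Ly6C antigen, averaged 27.6 to 178 CPM in the macrophage groups and 1333 to 2378 CPM in the monocyte groups. Cx3cr1, for which both populations were positive, averaged 96.9 CPM in macrophage controls and 28.4, 66.2 and 162 CPM at days 2, 14 and 28, and 501 CPM in monocyte controls and 81.1, 80.4 and 124 CPM at those days. Of 3 libraries that stand apart, macrophage day 14 library C and monocyte day 28 library A have a trend of level on exon length opposite in sign to the rest of their group, and macrophage day 2 library B has the highest share of mitochondrially encoded counts (4.35%). Of the 154 calls, 13 were lost without these 3 libraries. Markers of other cell types moved with the implant. The 8 macrophage markers summed to 17220 to 19750 CPM in macrophage controls and 7075 to 12320 in macrophage implant libraries. In monocytes they summed to 1759 to 3122 CPM in controls and 3948 to 6179 with the implant, where C1qa averaged 1.25 and 203 to 356. The means of 1 marker in each cell type went against the sum. Csf1r averaged 2140 CPM in monocyte controls and 1137, 1190 and 2015 at days 2, 14 and 28. Fcgr1 averaged 285 CPM in macrophage controls and 491, 468.5 and 303 at those days. The 10 neutrophil markers summed to 68.0 to 101 CPM in macrophage controls and 3055 to 6624 at day 2, with Elane at 0 in the controls and 0.14 CPM at day 2. Most of the control sum was Csf3r, with a mean of 78.5 CPM and 97.7 at day 2. Most of the day 2 sum was S100a8 (2307 CPM), S100a9 (1949) and Retnlg (274). Mpo averaged 0.0476 CPM in controls and 0.0137 at day 2, and like Elane it was too near 0 in macrophages for a direction to be read. In the same monocyte groups the 10 markers summed to 2512 to 3971 and 1884 to 4762 CPM. That monocyte sum joins markers that went opposite ways. From controls to day 2 the mean went from 1108 to 7.46 CPM for Ngp, 319 to 0.293 for Camp, 379 to 1.95 for Ltf and 43.1 to 2.08 for Elane. It also went down for Mpo (34.5 to 1.03) and Csf3r (282 to 153). The mean went up from 603 to 1499 for S100a8, 525.5 to 1239 for S100a9, 0.911 to 208 for Retnlg and 1.1 to 38.5 for Cxcr2. The 7 fibroblast markers summed to 2.18 to 6.37 CPM in monocyte controls, with Col1a1 at 0, and 359 to 771 at day 14, against 169 to 176 in macrophage controls and 14.6 to 57.8 in day 14 macrophages. Lum and Pdgfra were also at 0 in monocyte controls, whereas Pdgfrb went the other way, with a mean of 3.835 CPM there and 2.83 in day 14 monocytes. All these markers passed the filter on low counts, and the part of such cells in the changes of the members was not tested.

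Tfeb, which activates lysosomal genes, was called in the monocytes and in none of the macrophage control comparisons. In monocytes its level was 108, 78.1 and 88 CPM in controls, 7.32, 20.2 and 22.8 at day 2, 20.8, 9.17 and 25.9 at day 14 and 32.8, 51.8 and 25.6 at day 28. All 9 implant libraries lay below all 3 controls, and Tfeb fell at day 2 (-2.44 ± 0.44, adjusted p = 4e-04), day 14 (-2.3 ± 0.43, adjusted p = 4e-04) and day 28 (-1.32 ± 0.42, adjusted p = 0.033). The day 28 call was lost without control library A or C or day 28 library A or C. In macrophages the level was 18.1 and 34.2 CPM in controls, 20.2, 22.7 and 17 at day 2, 20.3, 47.9 and 32.6 at day 14 and 24.5, 26.1 and 22.8 at day 28, and implant and control libraries overlapped at every day (-0.39 ± 0.46, 0.36 ± 0.47 and -0.1 ± 0.46). Control macrophages stood below control monocytes (-1.8 ± 0.49, adjusted p = 0.019), and that call was lost without macrophage control library A or monocyte control library A.

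Tfe3, its close relative, was called in no comparison. Its level was 110.2 and 87.3 CPM in controls, 57.9, 64.7 and 59.7 at day 2, 116, 106 and 54.1 at day 14 and 104, 127 and 68.5 at day 28 in macrophages and 113, 65 and 111 CPM in controls, 63.3, 73.2 and 101 at day 2, 74.3, 68.9 and 59 at day 14 and 54.2, 128 and 122 at day 28 in monocytes. The day 2 macrophage libraries lay below the controls (-0.7 ± 0.37, adjusted p = 0.2), and in the other control comparisons the libraries overlapped.

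The motif that these factors are known to bind was counted in the promoters of the members, which RefSeq (GRCm38.p6) gave for 31 of 38. CACGTG was searched in the 250 bases before each start and is its own reverse complement, so it reads the same on both strands. It stood before 8 of the 31 members (25.8%) and 1854 of the 27025 genes in the table (6.86%). TCACGTG, on either strand, stood before the same 8 members (25.8%) and 3.58% of genes, and TCACGTGA before 3 members (9.68%), Atp6v1a, Mcoln1 and Gla, and 0.907% of genes. The longer motifs contain the shorter ones, and no test was made on these shares. Windows around the match nearest to the start in each of the 8 members, and the second match before Gla, are shown because they hold the letters that a TFEB family factor would read, 5′ to 3′ on the gene's strand with CACGTG in capitals.

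Atp6v0b chr4:117887330-117887359 (- strand): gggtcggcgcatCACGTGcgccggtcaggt
Atp6v1a chr16:44139373-44139402 (- strand): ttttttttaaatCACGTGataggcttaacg
Lamp1 chr8:13159134-13159160 (+ strand): acgtgaccacatCACGTGcggaacgga
Mcoln1 chr8:3500462-3500491 (+ strand): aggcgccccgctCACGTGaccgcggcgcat
Gla chrX:134601182-134601211 (- strand): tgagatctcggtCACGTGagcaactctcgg
Gla chrX:134601215-134601244 (- strand): taagcgattgatCACGTGagcatctacgtc
Glb1 chr9:114401018-114401047 (+ strand): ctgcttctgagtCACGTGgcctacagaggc
Naglu chr11:101070009-101070038 (+ strand): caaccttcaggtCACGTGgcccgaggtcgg
Gaa chr11:119267811-119267840 (+ strand): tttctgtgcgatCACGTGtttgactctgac

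Lamp1 had 4 matches and Atp6v0b, Mcoln1 and Gla 2 each before the start. In the GENCODE annotation the Atp6v1a match lies in an intron and the Mcoln1 and Naglu matches lie in an exon of some transcript, while the other matches shown lie upstream of the gene. The 8 genes did not move together. At day 2 in monocytes, Gla, Atp6v0b and Atp6v1a rose, Mcoln1 and Naglu fell, and Lamp1, Glb1 and Gaa were not called. A match is a description of the sequence and no measurement of binding.

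In the V0 sector, Atp6v0c, the main subunit of the proton-carrying ring, rose in all 6 control comparisons. Its level in macrophages was 35.1 and 37 CPM in controls, 94.7, 81.5 and 82.8 at day 2, 91.3, 90.8 and 113 at day 14 and 88.3, 77.8 and 104 at day 28. In monocytes it was 25.1, 29.6 and 26.2 CPM in controls, 89.6, 78.9 and 87.5 at day 2, 148, 113 and 164 at day 14 and 76.9, 78.2 and 89.4 at day 28. All 18 implant libraries stood above all 5 controls. Atp6v0c rose in macrophages at day 2 (1.26 ± 0.23, adjusted p = 0.00068), day 14 (1.45 ± 0.23, adjusted p = 0.00027) and day 28 (1.32 ± 0.23, adjusted p = 0.00057), and in monocytes by 1.66 ± 0.2 (adjusted p = 4.3e-06), 2.39 ± 0.2 (adjusted p = 2.8e-08) and 1.6 ± 0.2 (adjusted p = 6.3e-06). These 6 calls were kept with library totals alone. The gene lies at chr17:24163866-24169702 (GRCm38), and 39.5% of its longest transcript is nearly identical to the pseudogenes Atp6v0c-ps1 and Atp6v0c-ps2, so its count is uncertain where reads could match both.

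Atp6v0e, a small membrane subunit, showed the widest rise of the V0 genes in macrophages. Its level was 189 and 264 CPM in controls, 1271, 845 and 1309 at day 2, 694, 643 and 1541 at day 14 and 758, 683 and 712 at day 28 in macrophages and 277, 441 and 238 CPM in controls, 1030, 896 and 608 at day 2, 1610, 915 and 1828 at day 14 and 877, 602 and 573 at day 28 in monocytes. Implant and control libraries did not overlap in either cell type. The rise was 2.33 ± 0.42 (adjusted p = 0.00068) at day 2, 2.08 ± 0.41 (adjusted p = 0.0026) at day 14 and 1.66 ± 0.4 (adjusted p = 0.01) at day 28 in macrophages. In monocytes it was 1.41 ± 0.35 (adjusted p = 0.0055), 2.19 ± 0.36 (adjusted p = 9.4e-05) and 1.1 ± 0.34 (adjusted p = 0.03). The day 28 monocyte call was lost with library totals alone and without control library A or C or day 28 library A, and the macrophage calls at days 14 and 28 without control library A.

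The a subunit gene Atp6v0a1, which helps to place the pump in membranes, went the other way in early macrophages. Its level there was 209 and 91.5 CPM in controls, 36.5, 45.5 and 49.6 at day 2, 93.7, 66.6 and 57.8 at day 14 and 239, 168 and 57.5 at day 28, and in monocytes 31.9, 13.1 and 34.6 CPM in controls, 26.7, 35.6 and 46.5 at day 2, 30.8, 24.3 and 17.4 at day 14 and 26.1, 68.9 and 50.9 at day 28. All 3 day 2 macrophage libraries lay below both controls, whereas days 14 and 28 overlapped with them. Atp6v0a1 fell at day 2 (-1.78 ± 0.51, adjusted p = 0.021) and stood higher at day 28 than at day 2 (1.82 ± 0.47, adjusted p = 0.036). That rise over time was lost in 5 of 6 fits, those without day 2 library A or B or C or day 28 library A or B. The fall was lost without control library A or day 2 library A, and with an offset for the libraries' trend of level on exon length it was -1.28 ± 0.48 (adjusted p = 0.074). That trend ran from -0.21 to -0.15 (Spearman's rho over genes within a library) in day 2 macrophages and from 0.06 to 0.21 in their controls. Control macrophages carried more Atp6v0a1 than control monocytes (2.5 ± 0.51, adjusted p = 0.0021), a call lost without macrophage control library A.

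Of the remaining V0 genes, the d subunit gene Atp6v0d1 rose in 5 of the 6 control comparisons by 0.7 to 0.83, and in macrophages at day 14 its level did not pass the test (0.64 ± 0.23, adjusted p = 0.093). With library totals alone these 5 values were 0.08 to 0.38 and none was called. The macrophage call at day 2 was lost without control library A or B or day 2 library A or B or C, that at day 28 without control library A or B or day 28 library B or C and the monocyte call at day 28 without day 28 library C. Atp6v0b, another subunit of the ring, rose in monocytes at day 2 (0.81 ± 0.26, adjusted p = 0.028) and day 14 (1.00 ± 0.26, adjusted p = 0.0056), was called in no macrophage comparison and lost both calls with totals alone. The day 2 call was also lost without control library A or C or day 2 library A or B. Among V0 members, the level per kilobase of exon in macrophage controls was highest for Atp6v0b (198 CPM per kb) and lowest for Atp6v0c (10.7), with the uncertainty over copies given above. Of the exon bases of Atp6v0b, 11.8% overlap Gm12841 on the other strand, and no source here states whether counting used strand.

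Of the V1 sector, Atp6v1c1, Atp6v1d, Atp6v1e1 and Atp6v1h rose in all 6 control comparisons. Atp6v1e1, a peripheral stalk subunit, stood at 166 and 229 CPM in controls, 596, 466 and 563 at day 2, 417, 391 and 683 at day 14 and 530.5, 421 and 454 at day 28 in macrophages. In monocytes it stood at 183, 279 and 178 CPM in controls, 590.2, 477 and 438 at day 2, 787, 616 and 702 at day 14 and 415, 428 and 448 at day 28. No implant library overlapped with the controls of its cell type. The changes were 1.45 ± 0.28 (adjusted p = 0.0012) at day 2, 1.33 ± 0.28 (adjusted p = 0.0041) at day 14 and 1.24 ± 0.28 (adjusted p = 0.0054) at day 28 in macrophages, and 1.23 ± 0.24 (adjusted p = 0.00086), 1.72 ± 0.24 (adjusted p = 2.2e-05) and 1.01 ± 0.24 (adjusted p = 0.005) in monocytes. These 6 calls were kept with library totals alone, and the 3 macrophage calls were lost without control library A.

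Atp6v1d encodes the central stalk subunit that turns inside the pump. Its level was 94.2 and 121 CPM in controls, 241, 244 and 259 at day 2, 195, 179 and 235 at day 14 and 182, 194 and 179 at day 28 in macrophages. Monocytes had 77.6, 96.9 and 57.9 CPM in controls, 249, 219 and 217 at day 2, 307, 274 and 345 at day 14 and 220.4, 194 and 192 at day 28. The implant libraries were again all above the controls, and the day 14 monocytes were the highest of all groups. Atp6v1d rose by 1.2 ± 0.23 (adjusted p = 0.0012), 0.91 ± 0.23 (adjusted p = 0.015) and 0.78 ± 0.23 (adjusted p = 0.032) in macrophages at days 2, 14 and 28, and by 1.56 ± 0.2 (adjusted p = 1.2e-05), 1.99 ± 0.21 (adjusted p = 4.2e-07) and 1.38 ± 0.2 (adjusted p = 4.5e-05) in monocytes. The macrophage calls at days 14 and 28 were lost with library totals alone, at 0.36 (adjusted p = 0.25) and 0.31 (adjusted p = 0.33). Leaving out 1 library ended the macrophage call at day 2 in 1 of 5 fits, at day 14 in 2 of 5 and at day 28 in 4 of 5. The response at day 14 was smaller in macrophages than in monocytes (difference -1.08 ± 0.3, adjusted p = 0.03), a call lost in 8 of the 11 fits that each left out 1 library.

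Atp6v1c1, a regulatory subunit that joins the sectors, was at 129 and 126 CPM in controls, 321, 247 and 404 at day 2, 294, 294 and 330.5 at day 14 and 440.2, 306 and 225 at day 28 in macrophages and 69.8, 88.9 and 70.1 CPM in controls, 245, 206 and 186 at day 2, 297, 304 and 302 at day 14 and 232, 186 and 147 at day 28 in monocytes. Every implant library exceeded the controls of its cell type. It rose by 1.35 ± 0.28 (adjusted p = 0.0025), 1.27 ± 0.28 (adjusted p = 0.0062) and 1.35 ± 0.28 (adjusted p = 0.0034) in macrophages and by 1.48 ± 0.25 (adjusted p = 0.00019), 1.98 ± 0.25 (adjusted p = 5.4e-06) and 1.3 ± 0.24 (adjusted p = 0.00066) in monocytes. Over the 3 implant days together it was higher in macrophages (0.47 ± 0.14, adjusted p = 0.023), a call lost without macrophage day 2 library C or macrophage day 28 library A or monocyte day 28 library C. With library totals alone the macrophage values at days 2 and 14 were 0.74 (adjusted p = 0.05) and 0.72 (adjusted p = 0.081), not called. Leaving out 1 library also ended these macrophage calls, in 1 of 5 fits at day 2 and 2 of 5 at day 14.

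The other V1 genes differed in how many comparisons called them. Atp6v1h, a further regulatory subunit, rose by 0.71 to 1.21 over the 6 control comparisons, with 1.21 ± 0.25 (adjusted p = 0.0038) in macrophages at day 14, but none of these calls was kept with library totals alone (adjusted p = 0.073 to 0.31). Its monocyte call at day 28 was also lost in 3 of 6 fits that each left out 1 library, and each macrophage call in 1 of 5. Atp6v1a, the catalytic subunit, rose in 4, with 2.00 ± 0.4 (adjusted p = 0.0023) in macrophages at day 28. Such fits ended the Atp6v1a call in macrophages at day 14 in 4 of 5 and at day 28 in 1 of 5. In monocytes they ended it in 3 of 6 at day 2 and 3 of 6 at day 14. Atp6v1g1, a peripheral stalk subunit, also rose in 4, with 1.58 ± 0.26 (adjusted p = 2e-04) and 2.08 ± 0.27 (adjusted p = 7.1e-06) in monocytes at days 2 and 14, and Atp6v1f rose in 3. Leaving out 1 library ended the Atp6v1f call in 4 of 5 fits for macrophages and 4 of 6 for monocytes at day 2. Atp6v1b2, the partner of Atp6v1a in the ATP-splitting head, was called in no comparison. It was 542, 526 and 568 CPM in control monocytes and 281 to 524 CPM in the 9 monocyte implant libraries, each below the lowest control, with log2 values of -0.58 ± 0.28, -0.35 ± 0.28 and -0.39 ± 0.28 at days 2, 14 and 28. Copies elsewhere in the genome match 25.1% of the longest transcript of Atp6v1f and 31.5% of that of Atp6v1g1.

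**Figure D2:**
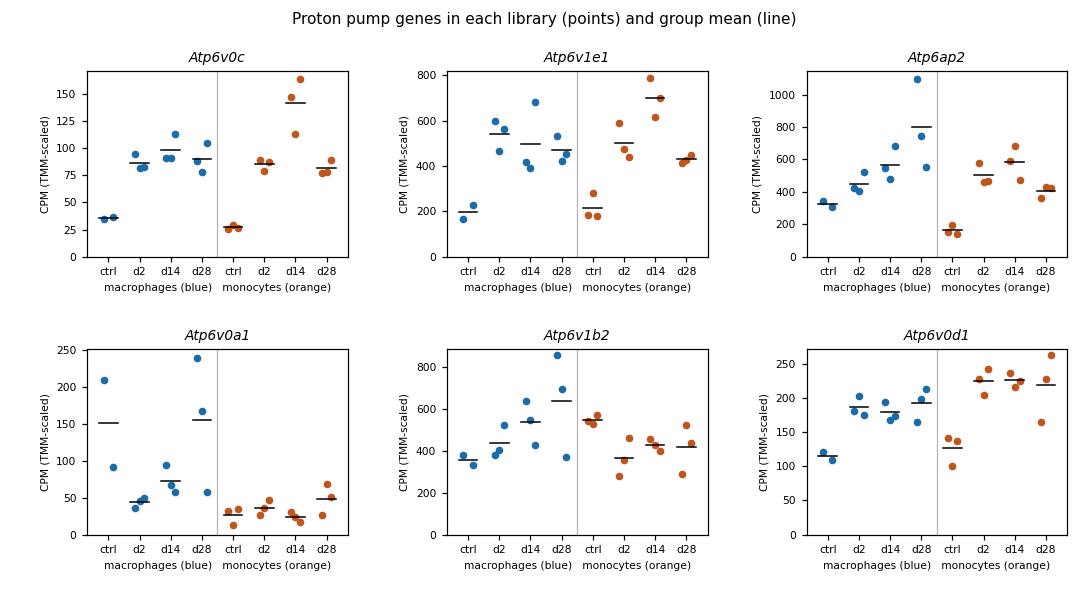
TMM-scaled CPM (y axis, from 0) of 6 pump genes in each library (points) with the group mean (line), for macrophages (blue) and monocytes (orange) in controls and at days 2, 14 and 28. Atp6v0c, Atp6v1e1 and Atp6ap2 lie above their controls in every implant library, Atp6v0a1 is lowest in monocytes and dips in day 2 macrophages, and the Atp6v1b2 libraries of implant monocytes lie below their controls.

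The accessory proteins assist in building the pump, and Atp6ap2 is also known as the prorenin receptor. Atp6ap2 stood at 342 and 308 CPM in controls, 421, 407 and 521 at day 2, 546, 479 and 682 at day 14 and 1097, 746 and 554 at day 28 in macrophages and 151, 197 and 137 CPM in controls, 578, 459 and 469.5 at day 2, 588, 686 and 473 at day 14 and 363, 432 and 427 at day 28 in monocytes. On the TMM scale all implant libraries were above their controls, and the monocyte controls were the lowest of all. On library totals no day 2 macrophage library lies above both controls. Atp6ap2 rose in monocytes at day 2 (1.64 ± 0.25, adjusted p = 6.4e-05), day 14 (1.85 ± 0.25, adjusted p = 1.1e-05) and day 28 (1.33 ± 0.24, adjusted p = 0.00049), and in macrophages the day 28 change passed (1.3 ± 0.28, adjusted p = 0.0044), though not with totals alone (0.81), and days 2 and 14 did not (0.47 ± 0.27 and 0.81 ± 0.27). Macrophages exceeded monocytes in controls (1.01 ± 0.26, adjusted p = 0.014) and at day 28 (0.97 ± 0.24, adjusted p = 0.035). The first of these calls was lost in 4 of 5 fits, those without macrophage control library A or B or monocyte control library A or C, and the second in 5 of 6, those without macrophage day 28 library A or B or monocyte day 28 library A or B or C. Of the longest Atp6ap2 transcript, 18.8% has a near-identical copy, Gm36448.

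Atp6ap1 was 539 and 566 CPM in controls, 974, 1027 and 1086 at day 2, 1336, 1057 and 1194 at day 14 and 1579, 1350 and 1196 at day 28 in macrophages and 603, 723 and 576 CPM in controls, 1171, 999.9 and 1093 at day 2, 1312, 1404 and 955 at day 14 and 758, 1248 and 758 at day 28 in monocytes. No implant library fell as low as the controls of its cell type. It rose in macrophages by 0.9 ± 0.25 (adjusted p = 0.017), 1.11 ± 0.25 (adjusted p = 0.0066) and 1.32 ± 0.25 (adjusted p = 0.0015). In monocytes it rose at day 2 (0.78 ± 0.22, adjusted p = 0.012) and day 14 (0.95 ± 0.22, adjusted p = 0.002), and day 28 did not pass (0.54 ± 0.22, adjusted p = 0.087). With library totals alone only the macrophage day 28 call of the 5 was kept. Leaving out 1 library ended the macrophage call at day 2 in 4 of 5 fits and at day 14 in 2 of 5, and the monocyte call at day 2 in 2 of 6.

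Summed over the 15 genes, the pump had 2980 to 3232 CPM in macrophage controls, 5456 to 6740 at day 2, 5371 to 7658 at day 14 and 5260 to 7962 at day 28. In monocytes the sum was 2755 to 3469 CPM in controls, 5290 to 6364 at day 2, 6705 to 8041 at day 14 and 4685 to 5392 at day 28. Neither cell type had an implant library within the range of its controls. The 16 hydrolase genes other than Psap summed to 4481 to 4512 CPM in macrophage controls and 3543 to 3975 at day 2, below both controls in every library, then to 5008 to 5792 at day 14, above both, and 4382 to 8144 at day 28, on either side of them. In monocytes they summed to 3059 to 3444 CPM in controls, 3578 to 4543 at day 2, 3049 to 3614 at day 14 and 2973 to 4610 at day 28, with overlap at days 14 and 28. With Psap included, the 17 genes summed to 6338 to 8306 CPM in macrophage controls, 6448 to 7861 at day 2, 8814 to 13810 at day 14 and 8997 to 15730 at day 28. The same sum in monocytes was 7652 to 11590 CPM in controls, 6304 to 7680 at day 2, 5842 to 7706 at day 14 and 4648 to 10080 at day 28. With Psap, day 2 macrophages overlapped with their controls, and the mean of day 2 monocytes was 6950 CPM against 9840 in controls with it and 3990 against 3220 without it. The order of the hydrolase sums depends on the scaling, as TMM factors were 1.24 to 1.41 in controls and 0.727 to 1.04 with the implant. On library totals the sums without Psap lie below both controls in every day 14 macrophage library. The day 2 monocyte mean without Psap also lies below that of controls on that scale. In bulk libraries such as these, fewer cells of a type and less RNA per cell cannot be told apart.

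**Figure D3:**
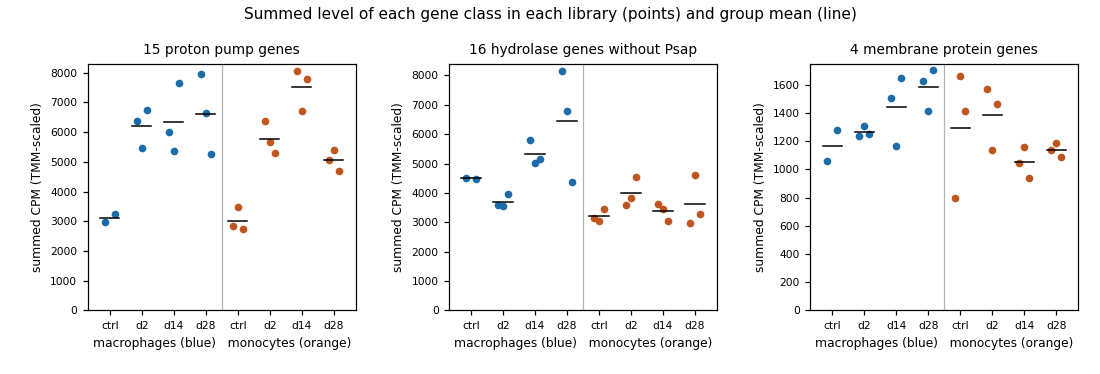
Summed TMM-scaled CPM (y axis, from 0) in each library (points) with the group mean (line) for the 15 pump genes, the 16 hydrolase genes without Psap and the 4 membrane protein genes, macrophages in blue and monocytes in orange. The pump sum of every implant library exceeds the highest control of its cell type (3232 CPM in macrophages and 3469 CPM in monocytes), and the hydrolase sum overlaps with controls in monocytes at days 14 and 28.

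Among the membrane proteins, Mcoln1, the channel that releases calcium from the lysosome, fell most. It had 78.9, 63.4 and 55 CPM in controls, 4.96, 7.56 and 9.36 at day 2, 2.98, 6.36 and 9.18 at day 14 and 48.5, 66.6 and 18.1 at day 28 in monocytes. The 6 libraries of days 2 and 14 were all far below the controls, and day 28 overlapped with them. Mcoln1 fell at day 2 (-3.17 ± 0.69, adjusted p = 0.0023) and day 14 (-3.41 ± 0.7, adjusted p = 0.00086), and no single library ended either call. At day 28 it was -0.57 ± 0.64, adjusted p = 0.58. Macrophages had 37.7 and 106 CPM in controls, 25.7, 26.7 and 14.7 at day 2, 25.1, 84.8 and 75 at day 14 and 5.25, 12 and 48.3 at day 28. Day 2 lay below both controls and days 14 and 28 overlapped with them, and no control comparison passed, with -1.68 ± 0.7 at day 2. With library totals alone that day 2 value was called (-2.25, adjusted p = 0.03).

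Lamp1 and Lamp2, the most abundant proteins of the lysosomal membrane, did not share a pattern. Lamp2 was 741 and 620.5 CPM in controls, 812, 856 and 893 at day 2, 1183, 822 and 872 at day 14 and 1339, 1107 and 1041 at day 28 in macrophages. Monocytes had 470.4, 535 and 554 CPM in controls, 1189, 898 and 1281 at day 2, 793, 942 and 644 at day 14 and 474, 927 and 872 at day 28. It rose in monocytes at day 2 (1.11 ± 0.24, adjusted p = 0.0023), a call lost with totals alone (0.66), and in macrophages the implant libraries were above the controls without a call (0.77 ± 0.28 at day 28). Lamp1 fell in monocytes at day 14 (-1.64 ± 0.58, adjusted p = 0.031), where its libraries had 227, 179 and 243 CPM against 209.6, 1042 and 775 CPM in controls. The controls overlapped with day 14 through library A, and the call was lost without control library B or C or day 14 library A or B or C.

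Npc1, which exports cholesterol from lysosomes, changed little. It had 40.5 and 48.9 CPM in controls, 54.7, 48.2 and 39.9 at day 2, 59.5, 55.9 and 63.6 at day 14 and 46.3, 62.5 and 68.6 at day 28 in macrophages and 38.6, 19.5 and 33.6 CPM in controls, 36.3, 23.7 and 31.3 at day 2, 23.3, 34.4 and 45.9 at day 14 and 53.3, 37.3 and 43.1 at day 28 in monocytes. None of the 6 control comparisons called it, and its log2 values ran from -0.01 to 0.54. Over the 3 implant days it was higher in macrophages (0.62 ± 0.16, adjusted p = 0.013). Of its exon bases, 5.31% overlap Rmc1 or Gm15956 on the other strand.

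Gla encodes alpha-galactosidase A, which removes terminal galactose from glycolipids and is deficient in Fabry disease. In macrophages it stood at 41.4 and 27.8 CPM in controls, 198, 143 and 179 at day 2, 184, 189 and 181 at day 14 and 195, 178 and 164 at day 28. In monocytes it stood at 10.8, 11.8 and 11.9 CPM in controls, 140.3, 152 and 160.5 at day 2, 287, 257 and 256 at day 14 and 184, 157 and 94.7 at day 28. The 9 implant libraries of each cell type lay above the controls, and the 3 monocyte controls were the lowest of all 23 libraries. Gla rose in macrophages at day 2 (2.32 ± 0.27, adjusted p = 7.7e-06), day 14 (2.42 ± 0.27, adjusted p = 6.7e-06) and day 28 (2.37 ± 0.27, adjusted p = 8.3e-06). In monocytes the rise was 3.71 ± 0.25 (adjusted p = 1.7e-09) at day 2, 4.53 ± 0.26 (adjusted p = 1.2e-10) at day 14 and 3.65 ± 0.25 (adjusted p = 1.7e-09) at day 28. Its adjusted p was the smallest among the members in each of the 6 control comparisons.

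The 6 Gla calls were kept with library totals alone, where the values were 1.70, 1.87 and 1.88 in macrophages and 3.26, 3.79 and 3.25 in monocytes, and no single library ended them. Control macrophages had more Gla than control monocytes (1.59 ± 0.25, adjusted p = 0.00013), and over the 3 implant days the cell types did not pass the test (-0.01 ± 0.13, adjusted p = 1). The response was smaller in macrophages at day 2 (difference -1.39 ± 0.33, adjusted p = 0.019), day 14 (-2.11 ± 0.33, adjusted p = 0.00045) and day 28 (-1.28 ± 0.33, adjusted p = 0.024). The call at day 2 was lost without macrophage control library A or macrophage day 2 library B, and the call at day 28 without macrophage control library A or macrophage day 28 library B or C or monocyte control library A or monocyte day 28 library A. Gla lies on the minus strand at chrX:134588149-134601125 (GRCm38), with the CACGTG windows printed above upstream of its annotated start.

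Lipa, the acid lipase that frees cholesterol and fatty acids from engulfed lipoproteins, separated the cell types. Its level in macrophages was 249 and 161 CPM in controls, 238, 182 and 277 at day 2, 536, 397 and 486 at day 14 and 1154, 937 and 584 at day 28. Monocytes had 194, 122 and 227 CPM in controls, 115, 83.3 and 71.3 at day 2, 183, 190.1 and 179.7 at day 14 and 112, 229 and 89.8 at day 28. The macrophage libraries of days 14 and 28 were above both controls, whereas monocytes at day 2 were below theirs. Lipa rose in macrophages at day 28 (2.12 ± 0.4, adjusted p = 0.0013), did not pass at day 14 (1.21 ± 0.38, adjusted p = 0.056) and fell in monocytes at day 2 (-1.02 ± 0.33, adjusted p = 0.029). That fall was lost without control library A or C or day 2 library B or C, and with the length offset it was -0.58.

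Macrophages exceeded monocytes in Lipa at day 2 (1.37 ± 0.34, adjusted p = 0.025), day 14 (1.36 ± 0.33, adjusted p = 0.016) and day 28 (2.63 ± 0.35, adjusted p = 0.00059), and the control libraries overlapped (0.17 ± 0.37, adjusted p = 0.85). The day 2 call was lost without macrophage day 2 library A or C or monocyte day 2 library B or C, and the day 14 call without macrophage day 14 library A or monocyte day 14 library C. The response at day 28 differed between the cell types (2.46 ± 0.51, adjusted p = 0.0047). Within macrophages, Lipa rose from day 2 to day 28 (1.94 ± 0.34, adjusted p = 0.004).

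Tpp1, a protease that trims tripeptides and is deficient in a form of neuronal ceroid lipofuscinosis, was 356 and 382 CPM in controls, 293, 295 and 331 at day 2, 525, 419 and 434 at day 14 and 762, 580.2 and 474 at day 28 in macrophages. In monocytes it was 88.8, 99.3 and 97.9 CPM in controls, 284, 167 and 198 at day 2, 216, 232 and 178 at day 14 and 176, 316 and 199.9 at day 28. All monocyte implant libraries lay above their controls, macrophage libraries lay below theirs at day 2 and above them at days 14 and 28, and all macrophage libraries lay above the monocyte libraries of the same time. Tpp1 rose in monocytes at day 2 (1.18 ± 0.25, adjusted p = 0.0015), day 14 (1.13 ± 0.24, adjusted p = 0.0013) and day 28 (1.28 ± 0.25, adjusted p = 0.00083), and no macrophage control comparison passed (-0.27 ± 0.27, 0.31 ± 0.27 and 0.71 ± 0.28). With library totals alone the day 14 monocyte call was lost (0.41, adjusted p = 0.2) and macrophages at day 2 were called lower (-0.87, adjusted p = 0.031). The response at day 2 was smaller in macrophages than in monocytes (difference -1.45 ± 0.36, adjusted p = 0.023), a call lost in 8 of the 11 fits that each left out 1 library.

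Psap, the precursor of the saposins that help hydrolases to reach lipids, was the member with the highest level per kilobase in each group, with 1030 CPM per kb in control macrophages and 2414 in control monocytes. In monocytes it had 7127, 4593 and 8147 CPM in controls, 3286, 2467 and 3137 at day 2, 2816, 4259 and 2793 at day 14 and 1675, 5465 and 3988 at day 28. The day 2 and day 14 libraries lay below the controls, and Psap fell at day 2 (-1.16 ± 0.38, adjusted p = 0.03) and day 14 (-1.01 ± 0.38, adjusted p = 0.043). The day 2 call was lost without control library A or C or day 2 library A or B or C, and the day 14 call without control library A or C or day 14 library A or C and with RLE size factors (-0.95). In macrophages it had 3794 and 1857 CPM in controls, 2865, 3277 and 3887 at day 2, 8016, 6115 and 3648 at day 14 and 7585, 8433 and 4614 at day 28, and day 28 did not pass (1.28 ± 0.44, adjusted p = 0.069). The difference between the cell types' responses passed at day 14 (2.08 ± 0.58, adjusted p = 0.033) and day 28 (2.12 ± 0.58, adjusted p = 0.034), with calls lost in 7 and 6 of 11 fits that left out 1 library.

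Further enzymes fell in monocytes. Naglu, which degrades heparan sulfate, had 31, 19 and 31.5 CPM in controls, 5.74, 5.39 and 5.25 at day 2, 5.33, 3.77 and 6.2 at day 14 and 25.4, 58 and 13.9 at day 28. It fell at day 2 (-2.32 ± 0.69, adjusted p = 0.018) and day 14 (-2.41 ± 0.69, adjusted p = 0.01), while day 28 overlapped with the controls. The day 2 call was lost without day 2 library A, B or C. The mannosidase genes Man2b1 (-1.17 ± 0.38, adjusted p = 0.021) and Manba (-1.36 ± 0.39, adjusted p = 0.011) fell at day 14, calls that an offset for the length trend ended at -0.69 and -0.85. In macrophages Man2b1 fell at day 2 (-1.57 ± 0.42, adjusted p = 0.013), with 204, 263 and 255 CPM against 805 and 624 CPM in controls, and the offset ended that call too (-1.07). The Man2b1 call at day 14 was lost without control library C or day 14 library A or C, and that in macrophages without control library A or day 2 library A.

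Other enzymes rose. Neu1, the lysosomal sialidase, rose in monocytes at all 3 days (0.88, 1.19 and 1.1) and in macrophages at day 28 (0.77 ± 0.22, adjusted p = 0.031). The macrophage call was lost without control library A or B or day 28 library A or B, and with library totals alone the monocyte call at day 28 was the one kept. Ppt1, which removes palmitate from proteins, had 357, 379 and 398 CPM in control monocytes, 823, 769 and 891 at day 2 and 623, 657 and 457 at day 14. It rose at day 2 (1.13 ± 0.21, adjusted p = 0.00066) and day 14 (0.61 ± 0.21, adjusted p = 0.028), and with library totals alone the day 14 value turned to -0.11. The day 14 call was also lost without control library A or B or C or day 14 library A or B. In macrophages all 11 Ppt1 libraries were between 279 and 378 CPM. Galns, which degrades keratan sulfate, rose in macrophages at day 14 (1.18 ± 0.35, adjusted p = 0.044) and day 28 (1.5 ± 0.36, adjusted p = 0.0092). Its day 14 call was lost without control library A or B or day 14 library A or C, and the day 28 call without control library A or B.

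Asah1, the acid ceramidase, rose in monocytes at day 2 (0.61 ± 0.2, adjusted p = 0.03), a call lost with totals alone (0.16) and without control library A or C or day 2 library A or C. The remaining hydrolases Glb1, Gusb, Hexa, Smpd1, Gaa and Fuca1 were called in none of the 6 control comparisons, with log2 values from -1.02 for Gaa in day 2 macrophages to 0.98 for Gusb in day 28 macrophages. Tmem202 on the other strand overlaps 12.8% of the exon bases of Hexa, and Tmppe 5.49% of those of Glb1.

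**Figure D4:**
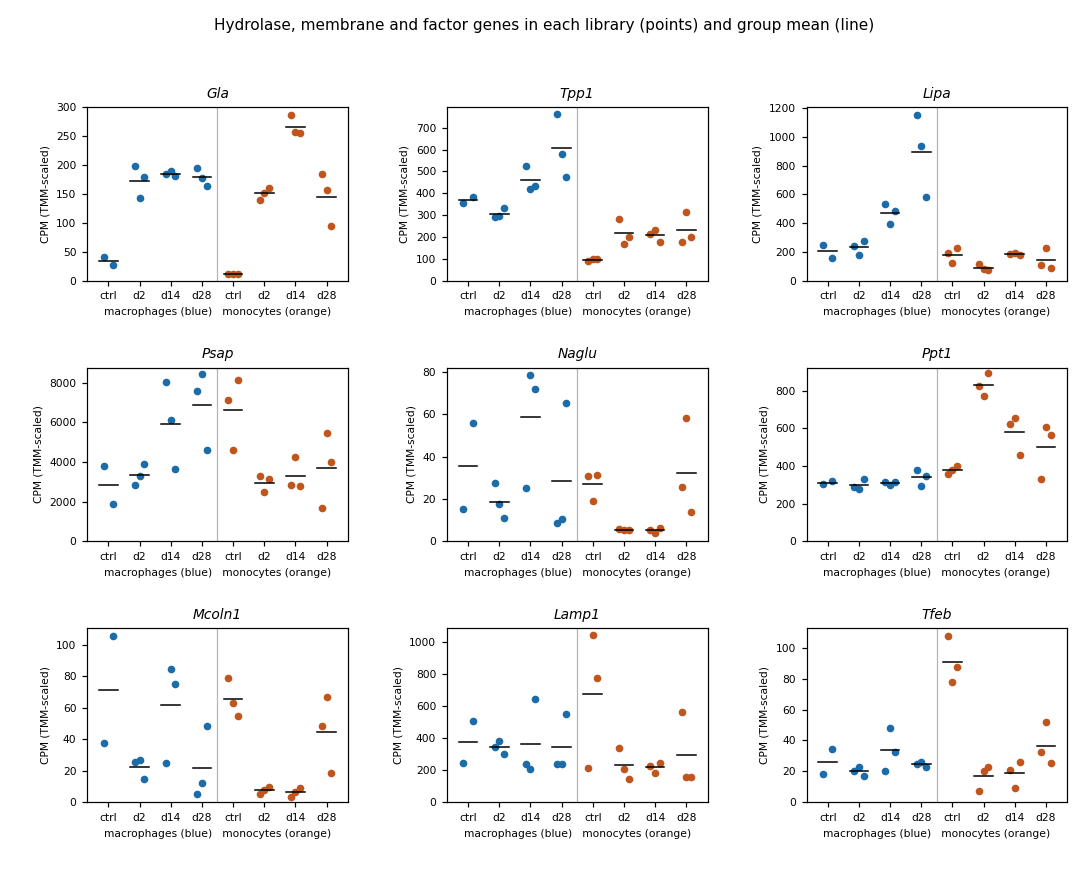
TMM-scaled CPM (y axis, from 0) of 6 hydrolase or activator genes, Mcoln1, Lamp1 and Tfeb in each library (points) with the group mean (line), macrophages in blue and monocytes in orange. Gla is lowest in the monocyte controls, Lipa is highest in day 28 macrophages, and Mcoln1, Naglu and Tfeb are low in day 2 and day 14 monocytes.

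Direct comparison of the cell types placed many hydrolases higher in macrophages and few pump genes on either side. In controls, 5 members were higher and 1 lower in macrophages (7.61% and 4.9% of all tested genes, 12.5% in either direction). Tpp1 (1.95 ± 0.27, adjusted p = 3.1e-05) and Glb1 (1.36 ± 0.29, adjusted p = 0.0029) were among the 5 beside Gla, Atp6v0a1 and Atp6ap2, and Tfeb was the lower one. Without macrophage control library A the count was 3. At day 2 Lipa was the 1 member higher and Ppt1 the 1 lower (-1.47 ± 0.22, adjusted p = 0.00045), with 1.64% and 1.78% of all genes called (3.42% in either direction). At day 14, 11 were higher and 1 lower (5.34% and 4.02%, 9.37% in either direction). Among the 11 were Naglu (3.52 ± 0.72, adjusted p = 0.0059), Mcoln1 (3.31 ± 0.7, adjusted p = 0.0069), Tpp1 (1.14 ± 0.24, adjusted p = 0.0076) and Hexa (1.53 ± 0.36, adjusted p = 0.013), the subunit that degrades gangliosides, and the lower one was Ppt1 (-0.91 ± 0.21, adjusted p = 0.012). Without macrophage day 14 library A the count was 5, and the Hexa call was lost in 1 of 6 fits and the Ppt1 call in 3 of 6. Scaled by totals alone, 12 were higher and 0 lower, and 74.8% of all called genes were higher, against 57.1% with TMM. With the offset for the length trend 7 were higher and 5 lower, and that share was 39.9%. Over all tested genes, totals alone called 1219 higher and 410 lower, and the offset 784 and 1181. At day 28, 6 were higher and 0 lower (1.49% and 1.03%, 2.52% in either direction): Lipa, Tpp1, Atp6ap2, Manba, Gusb and Glb1. The values of those not yet given were 1.39 ± 0.25 (adjusted p = 0.0054) for Tpp1, 1.58 ± 0.4 (adjusted p = 0.036) for Manba, 1.1 ± 0.29 (adjusted p = 0.044) for Gusb and 1.00 ± 0.27 (adjusted p = 0.048) for Glb1. The Manba and Gusb calls were each lost in 5 of 6 fits that left out 1 library and the Glb1 call in 4 of 6. The count was 2 with library totals alone, 2 without the 3 libraries that stand apart and 2 without macrophage day 28 library A.

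Averaged over the 3 implant days, 13 members were higher in macrophages and 1, Ppt1, was lower (-0.98 ± 0.12, adjusted p = 1.6e-05), with 8.47% and 8.16% of all genes called (16.6% in either direction). Of the 23 members outside the pump 11 were higher, with a median of 0.62, and of the 15 pump genes 2 were, Atp6v0a1 (1.18 ± 0.27, adjusted p = 0.0047) and Atp6v1c1, with a median of -0.03. The median of all genes was 0.04. Lipa (1.79 ± 0.2, adjusted p = 3e-06), Tpp1 (1.01 ± 0.14, adjusted p = 5.6e-05), Hexa (1.17 ± 0.21, adjusted p = 0.00059) and Glb1 (0.77 ± 0.15, adjusted p = 0.0016), the lysosomal beta-galactosidase, led the higher ones by adjusted p. They were followed by Manba (1.05 ± 0.23, adjusted p = 0.003) and Gusb (0.73 ± 0.16, adjusted p = 0.004).

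**Figure D5:**
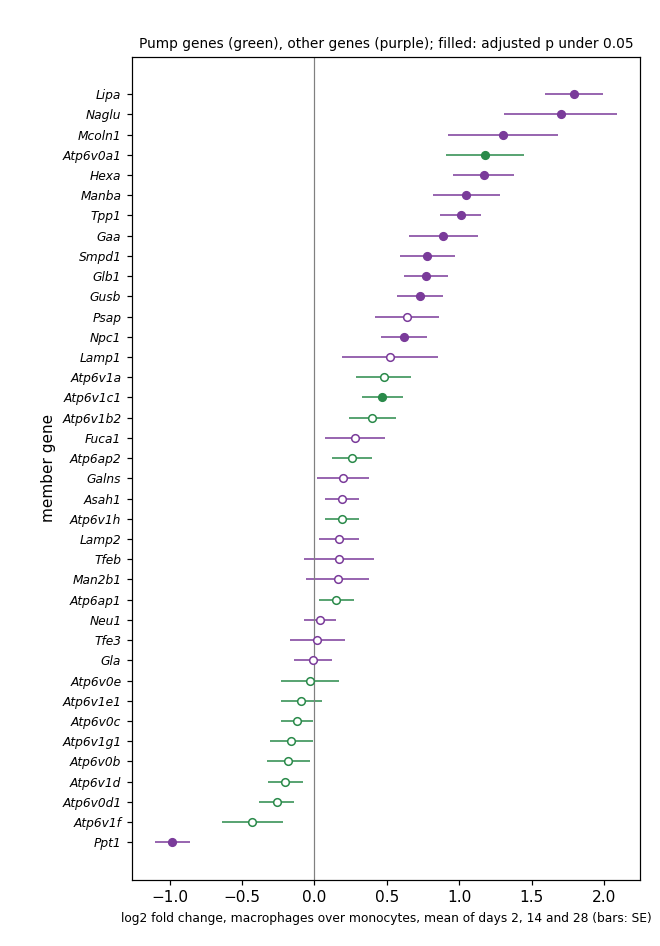
Log2 fold change of macrophages over monocytes averaged over days 2, 14 and 28 (x axis) for the 38 genes (y axis, in order of the value), with bars for the standard error, pump genes in green and others in purple, filled where edgeR's adjusted p is under 0.05. The called genes on the right are mainly purple, from Npc1 at 0.62 to Lipa at 1.79, most green points lie near 0, and Ppt1 stands alone on the far left at -0.98.

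Within a cell type, day 28 was set against day 2. From day 2 to day 28, 6 members rose and 0 fell in macrophages (2.28% and 1.97% of all genes, 4.26% in either direction). They were Lipa, Man2b1 (1.7 ± 0.39, adjusted p = 0.019), Manba (1.72 ± 0.4, adjusted p = 0.02), Tpp1 (0.98 ± 0.24, adjusted p = 0.029), Gaa (1.64 ± 0.42, adjusted p = 0.033), which digests glycogen, and Atp6v0a1. All 17 hydrolase genes had a positive value in that comparison, with a median of 0.84, against 0.04 over all tested genes. The trend of level on exon length differed between these groups, from -0.21 to -0.15 at day 2 and 0.08 to 0.18 at day 28. The calls of Man2b1, Tpp1 and Gaa were each lost in 5 of 6 fits that left out 1 library, and that of Manba in 4 of 6. The count was 3 without the 3 libraries that stand apart, 3 with the length offset and 1 without macrophage day 2 library A. With the offset 40.5% of all called genes were higher against 53.6% with TMM. Over all tested genes the offset called 194 higher and 285 lower. In monocytes edgeR called 0 members between day 2 and day 28 (0.387% of all genes higher and 0.48% lower, 0.867% in either direction), 6 had an unadjusted p under 0.05, and DESeq2 called 4. The difference between the cell types in this change over time was not tested.

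Tests of the difference in response between the cell types called few members. At day 2, 0 were more positive and 3 more negative in macrophages, Gla, Tpp1 and Ppt1 (-1.19 ± 0.32, adjusted p = 0.035), against 1.37% and 2.42% of all genes (3.78% in either direction). At day 14, 2 were more positive, Psap and Tfeb (2.66 ± 0.64, adjusted p = 0.015), and 2 more negative, Gla and Atp6v1d (3.25% and 4.29%, 7.55% in either direction). Scaled by library totals alone these were 4 and 2, and 55.5% of all called genes were more positive, against 43.1% with TMM. Over all tested genes, totals alone called 716 more positive and 575 more negative. At day 28, 2 were more positive, Lipa and Psap, and 1 more negative, Gla (2.23% and 3.55%, 5.77% in either direction). In 10 of the 11 fits that left out 1 library, the Ppt1 difference at day 2 lost its call, and the Tfeb difference at day 14 lost it without macrophage control library A.

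Lysosomal genes outside the 38 were taken from lists written with earlier results of these data known. Their counts stand beside shares over all tested genes of 10.1%, 5.51% and 6.57% higher and 7.1%, 2.7% and 3.99% lower in macrophages at days 2, 14 and 28, and of 15.5%, 19.8% and 11.7% higher and 11.5%, 17.9% and 6.52% lower in monocytes. Of 10 V-ATPase isoform genes outside the members, 5 passed the filter, and Atp6v0d2, the d subunit isoform of osteoclasts and some macrophages, was the one called higher in any control comparison. It had 0.0436, 0.133 and 0.0237 CPM in controls, 15.5, 1.39 and 1 at day 2, 31.4, 25 and 14.6 at day 14 and 15.6, 23.1 and 14.5 at day 28 in monocytes and 21.8 and 12.1 CPM in controls, 90.4, 11.4 and 119.6 at day 2, 88.3, 89.4 and 504 at day 14 and 956, 395 and 97.2 at day 28 in macrophages. The monocyte controls were near 0 and the macrophage implant libraries spread widely, from 11.4 to 956 CPM. Atp6v0d2 rose in monocytes at day 2 (adjusted p = 0.0016), day 14 (adjusted p = 0.00011) and day 28 (adjusted p = 0.00027), where no fold is given because the fit against controls near 0 depends on the prior count, and in macrophages at day 28 (4.84 ± 1.27, adjusted p = 0.017). Atp6v0a2 fell in monocytes at day 14 (-2.29 ± 0.59, adjusted p = 0.0049).

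Of 23 other hydrolases and activators, 2, 2 and 3 rose and 3, 0 and 0 fell in macrophages at days 2, 14 and 28. In monocytes 6, 6 and 5 rose and 7, 7 and 3 fell. Acp5, an acid phosphatase of osteoclasts and macrophages, rose in all 6 comparisons, from 1.51 in monocytes at day 2 to 3.67 ± 0.41 (adjusted p = 1.1e-06) in monocytes at day 14. Gm2a, which presents gangliosides to Hexa, rose in macrophages (2.15 ± 0.26, adjusted p = 1.5e-05 at day 28). Hgsnat and Sgsh, which like Naglu act in heparan sulfate breakdown and were named after their values were seen, fell in monocytes at all 3 days, Hgsnat with log2 values of -3.17 ± 0.7, -4.49 ± 0.75 and -2.03 ± 0.67 and Sgsh with -1.17 ± 0.3, -1.93 ± 0.31 and -1.26 ± 0.3.

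Of 19 other lysosomal membrane proteins, 18 were tested, and 1, 5 and 4 rose in macrophages and 6, 8 and 6 in monocytes, with 2, 0 and 0 and 1, 4 and 0 that fell. Cd63, a tetraspanin of late endosomes, was 10.4, 12.7 and 7.83 CPM in control monocytes and 623, 521 and 845 CPM at day 14 (6.00 ± 0.64, adjusted p = 6.4e-07). Of 19 genes that act on TFEB at the lysosome or belong to its family, 4, 0 and 1 rose and 3, 1 and 1 fell in macrophages, and 9, 9 and 5 rose and 2, 2 and 0 fell in monocytes. Mitf and Tfec, relatives of Tfeb, rose in monocytes at the days on which Tfeb fell. Mitf had 6.65, 3.77 and 8.14 CPM in controls and 31.2, 39.2 and 46.3 CPM at day 14 (2.65 ± 0.32, adjusted p = 2.8e-06), and Tfec had 2.33, 8.79 and 11.2 CPM and 46.6, 36.9 and 38.3 CPM at day 2 (2.45 ± 0.47, adjusted p = 0.00078).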

How the data were processed

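RNA-seq of 23 libraries in 8 groups was analysed from the counts the authors deposited, 1 table of raw counts for 47729 gene entries and 23 libraries, of which 20566 entries were 0 throughout. Per the submitters' processing notes, STAR 2.4.1d, featureCounts of Subread 1.5.1 and the build GRCm38 were used, and the annotation release and the handling of strand and of reads with several matches are not stated. The 38 members, the other gene lists and the tests were chosen with earlier results of these data known.

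Counts were fitted with edgeR 4.0.16 (R 4.3.3, limma 3.58.1) by the robust quasi-likelihood test, with TMM factors, the filter of filterByExpr and 8 group means over all 23 libraries. The 16 contrasts were adjusted by Benjamini and Hochberg over 16260 genes each, with a prior count of 0.125 for fold changes. The fit was tested on simulated data. CPM are counts over TMM-scaled totals, and values per kilobase divide them by summed exon length (GENCODE, GRCm38). Copies were sought with blastn 2.17.0 at 97% identity over at least 75 bases.

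Values in every library are given for the 3 members of each role class called in the most comparisons, plus the member with the smallest adjusted p in each control comparison, and some others beside them. Up to 6 called members per direction in each comparison are given with their statistics, and up to 4 called genes of a further list are named. Alternatives were size factors of RLE, no low count filter, DESeq2 1.42.0, a replicate block, an offset for the trend of level on exon length, a prior count of 2 and each library left out. Library totals without TMM, and a fit without 3 libraries that stand apart, were added after seeing the data.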

Additional observations from a re-analysis of the deposited data

Results flagged for a closer look

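The response to the implant differed between the cell types by the edgeR test of the difference itself (macrophage minus monocyte log2 fold change) for 7 members in 10 results. For Gla the difference was -1.39 ± 0.33 at day 2 (2.32 in macrophages and 3.71 in monocytes), -2.11 at day 14 and -1.28 at day 28, in each case a smaller rise in macrophages. Ppt1 differed by -1.19 at day 2 (-0.06 against 1.13) and Tpp1 by -1.45 at day 2 (-0.27 against 1.18). Atp6v1d differed by -1.08 at day 14 (0.91 against 1.99). Psap differed by 2.08 at day 14 (1.07 against -1.01) and 2.12 at day 28 (1.28 against -0.84). Tfeb differed by 2.66 at day 14 (0.36 against -2.3) and Lipa by 2.46 at day 28 (2.12 against -0.34). All 10 differences rest on the 2 macrophage control libraries.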

How the results depend on the processing

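Counts below are members called, with the reported count in parentheses. Library totals alone gave 4 for macrophages at day 14 (10) and 8 at day 28 (14), and 2 between the cell types at day 28 (6). With them 111 of the 154 called values kept their call, 42 lost it and 1 reversed, Ppt1 in monocytes at day 14 (-0.11). With the RLE factors 3 calls were lost, with no low count filter 24, with the length offset 27, with the replicate block 19, without the 3 libraries 13 and with DESeq2 0. The most, 76, were lost in at least 1 of the fits that left out 1 library. Between the cell types, DESeq2 gave 10 in controls (6) and 11 at day 28 (6), no filter gave 5 at day 2 (2), and the replicate block and the fit without the 3 libraries gave 2 each at day 28. For macrophages at day 28 against day 2 (6), no filter gave 10, DESeq2 11, and the length offset and the fit without the 3 libraries 3 each. For monocytes (0), no filter gave 3 and DESeq2 4. The differences in response gave 1 with the replicate block and 7 with DESeq2 at day 2 (3), and 2 and 9 at day 14 (4). The replicate letters share only a letter: deviations of libraries with the same letter correlated at -0.23 to 0.24 (median -0.012, 77 pairs), and those with different letters at -0.29 to 0.29.

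Leaving out 1 library at a time gave 3 to 13, 2 to 10 and 7 to 17 members for macrophages at days 2, 14 and 28, and 18 to 23, 20 to 21 and 10 to 15 for monocytes. It gave 3 to 6 between the cell types in controls, 1 to 2 at day 2, 5 to 17 at day 14, 2 to 15 at day 28 and 13 to 16 over the 3 days. Day 28 against day 2 gave 1 to 12 in macrophages and 0 in monocytes, and the differences in response 0 to 3, 2 to 6 and 1 to 5 at days 2, 14 and 28. Leaving out a macrophage control leaves 1 library in that group, assumed to vary like the others. Fold changes of genes near 0 depend on the prior count, and copies limit Atp6v0c, Atp6v1f, Atp6v1g1 and Atp6ap2. Over all genes, the counts called that moved by over 1.5 times outside the fits that left out 1 library were 1335 for macrophages at day 14 (DESeq2 2281), and between the cell types 556 at day 2 (no filter 1033, DESeq2 1189, without the 3 libraries 328), 1523 at day 14 (no filter 2494, DESeq2 2983) and 409 at day 28 (no filter 1285, DESeq2 1229, without the 3 libraries 229). Day 28 against day 2 had 692 in macrophages (no filter 1681, DESeq2 1928, replicate block 397) and 141 in monocytes (no filter 1089, DESeq2 862). The differences in response had 615, 1227 and 939 at days 2, 14 and 28 (no filter 1240, 2366 and 1602, DESeq2 1083, 2262 and 1505).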
